A study of Homo sapiens with 7 samples.

Results

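The 10 genes studied here belong to TGF-beta and BMP signalling, and were followed through the peak lists of HCT116 cells, a human colorectal carcinoma line. They were chosen by name: the ligand TGFB1, the receptors TGFBR1, TGFBR2, ACVR2A and BMPR1A, the signal-carrying SMAD2, SMAD3 and SMAD4, the inhibitor SMAD7 and the target ID1. These are 10 of the 20162 protein-coding genes annotated on hg19. Every deposited interval over their gene bodies and the 10 kb on each side was taken, which gave 203 intervals in 6 lists. The labels name no treatment, and the cells were grown, cross-linked and sheared with the PIXUL sonicator in 96-well plates at about 200000 cells per well. Chromatin of single wells was precipitated with antibodies to H3K4me1, H3K4me3, H3K9Ac, H3K27me3, H3K36me3 and CTCF, and the H3K27Ac library of the series was not analysed here. There was 1 library per mark, so no value below has a replicate error, no test between conditions was possible, and the read depth is unknown because the lists hold no read counts. Differences between genes are descriptions of single libraries.

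TGF-beta, activin and BMP ligands bind pairs of type I and type II serine/threonine kinase receptors on the cell surface. The activated receptors phosphorylate SMAD proteins, which join SMAD4, enter the nucleus and act on target genes, among them SMAD7, which feeds back on the receptors. In the colon epithelium the pathway restrains proliferation, and its receptors and SMADs are recurrently lost in colorectal cancer. Of the marks measured, H3K4me3 and H3K9Ac are known from active promoters, H3K4me1 from promoter flanks and enhancers, H3K36me3 from transcribed gene bodies and H3K27me3 from Polycomb repression, while CTCF is a DNA-binding insulator and loop anchor protein.

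Each interval carries the fold enrichment over background and the -log10 q-value that the peak caller gave it as a whole. An interval is called a peak here only where it passed the limits of the Methods: more than 2-fold enrichment at a q-value under 1e-03 for H3K4me1 and H3K27me3, and more than 5-fold enrichment at a q-value under 1e-10 for the other marks. The Methods give the stricter pair for other histone marks and none for CTCF, which was held to it here as well. Of the 203 intervals over the 10 genes, 74 passed. H3K4me3 had 13 peaks among 17 intervals, H3K9Ac 14 among 45, H3K4me1 34 among 43 and CTCF 13 among 24. In the whole lists of these marks 79.1%, 37.2%, 63.9% and 54.8% of the intervals passed. None of the 70 H3K36me3 and none of the 4 H3K27me3 intervals passed, which in the whole lists held for all but 0.225% and 2.81%. Marker genes of cell types were examined at their transcription start sites (TSS), where 59.1% of all protein-coding genes had an H3K4me3 peak. H3K4me3 peaks were found at 6 of 7 epithelial genes, VIL1 being the one without. Most of the 7 are genes of epithelia in general, and of the intestinal CDX2 and VIL1 only CDX2 had a peak, so colon identity was not checked. Of 6 genes of other cell types 1 had a peak, COL1A1 at a fold enrichment of 9.21.

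**Figure D1:**
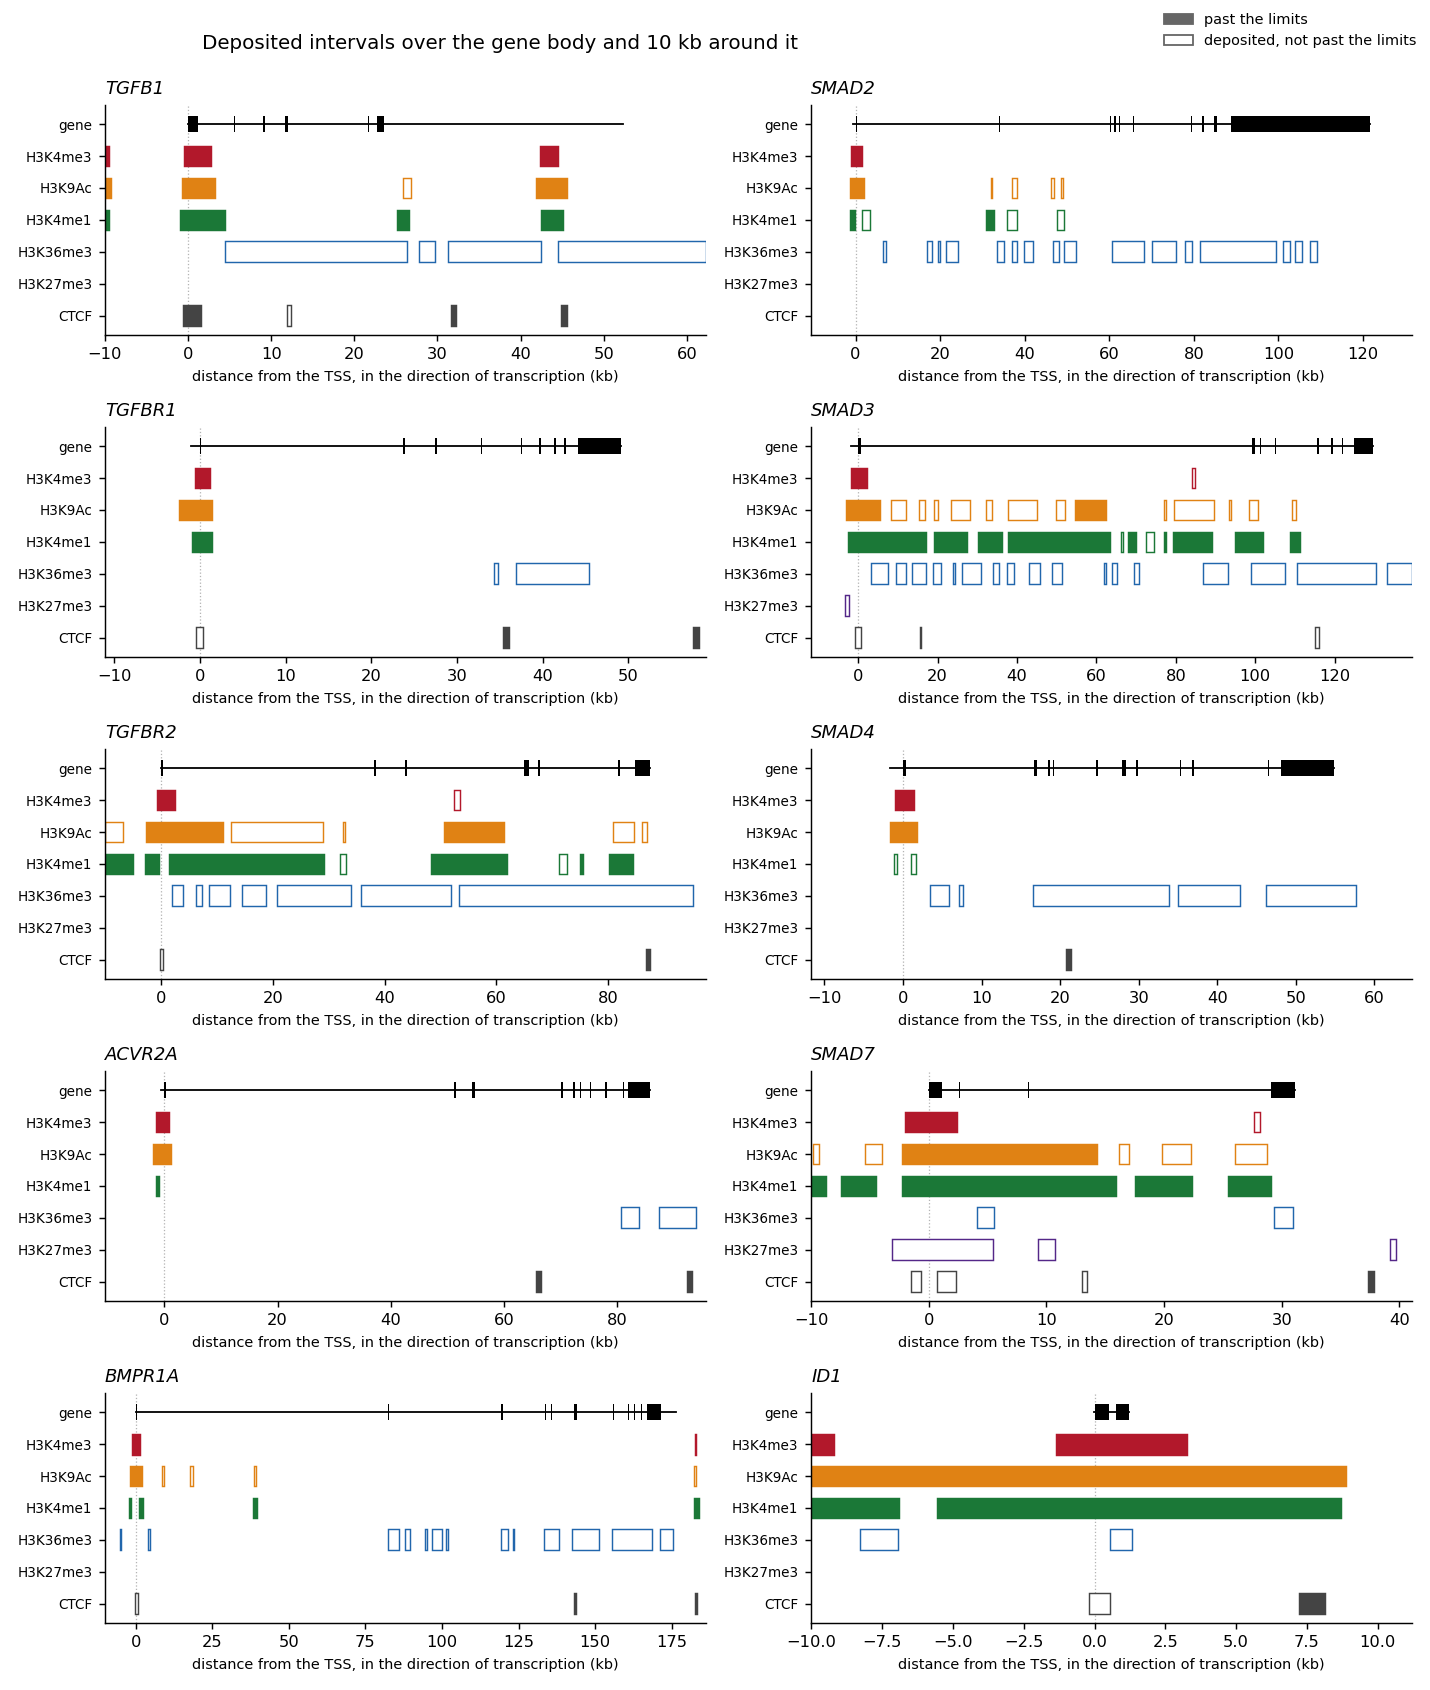
Deposited intervals over each gene and 10 kb around it, by distance from the TSS in kb in the direction of transcription. Rows are the marks, filled bars passed the limits, open bars did not, and the black row shows the annotated gene with the exons of its canonical transcript. All 10 genes had a filled H3K4me3 and H3K9Ac bar at the TSS, and wide H3K4me1 bars lay over TGFBR2, SMAD3, SMAD7 and ID1.

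Every one of the 10 promoters carried both promoter marks. H3K4me3 peaks lay within 1 kb of the canonical TSS of 10 of 10 genes (59.1% of all protein-coding genes), H3K9Ac peaks of 10 of 10 (58.5%) and both together of 10 of 10 (57.5%). An H3K4me1 peak lay there at 8 of 10 genes (49.1%), BMPR1A and SMAD4 being the exceptions, and all 3 marks at the same 8 (43.1%). The H3K4me3 fold enrichments of the 10 genes ran from 12.7 to 37.7 with a median of 24.6, beside a median of 22.5 and a middle range of 17.3 to 27.8 for all genes with such a peak. Their widths ran from 1855 to 4634 bp with a median of 3046.5 bp, beside 2061 bp for all marked genes. The levels were thus spread through the range of other marked promoters, whereas 9 of the 10 widths exceeded that of the median promoter.

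**Figure D2:**
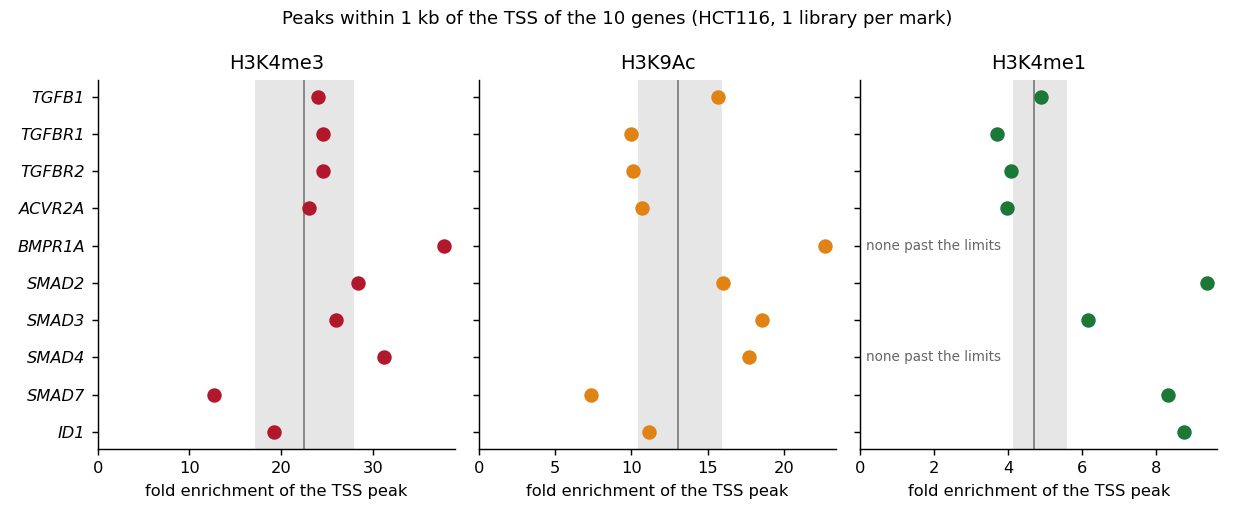
Fold enrichment of the highest peak within 1 kb of the TSS of each gene for H3K4me3, H3K9Ac and H3K4me1. The grey band spans the middle range of all protein-coding genes with such a peak and the line is their median (22.5 for H3K4me3). BMPR1A had the highest H3K4me3 and H3K9Ac values of the 10 genes and SMAD7 the lowest.

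TGFB1 encodes the ligand that gives the pathway its name (chr19:41807492-41859827, minus strand). Its TSS lay in an H3K4me3 peak of 3233 bp and fold enrichment 24.0, an H3K9Ac peak of fold enrichment 15.7 and an H3K4me1 peak of fold enrichment 4.87. It was the one gene of the 10 with a CTCF peak at the TSS, at a fold enrichment of 15.3 and 2173 bp wide (1 of 10, beside 13.6% of all protein-coding genes). With deposited intervals of any strength counted, CTCF lay at the TSS of 7 of the 10 (29.5%). The annotated gene also reaches over CCDC97, a gene on the opposite strand whose TSS lies inside it with all 3 active marks, and into HNRNPUL1. On the opposite strand, TMEM91 and another coding gene begin inside the H3K9Ac and H3K4me1 peaks at the TGFB1 TSS and run across that TSS. Their canonical start sites lie farther off. The H3K4me3 peak of fold enrichment 17.0 inside the TGFB1 record lay at the CCDC97 TSS, and that of fold enrichment 14.98 upstream of TGFB1 lay at the TSS of B9D2. Neither was counted as a TGFB1 promoter peak. The TGFB1 body shares below cover the whole annotated gene, with the H3K4me1 and H3K9Ac peaks at the CCDC97 TSS.

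Among the receptors, the BMP type I receptor BMPR1A stood highest. BMPR1A (chr10:88516353-88692582, plus strand) had an H3K4me3 fold enrichment of 37.7, above that of 96.3% of all genes with an H3K4me3 peak, and an H3K9Ac fold enrichment of 22.7, above that of 97.8%. TGFBR1, the TGF-beta type I receptor (chr9:101866320-101916474, plus strand), had an H3K4me3 fold enrichment of 24.6. TGFBR2, the type II receptor that binds TGF-beta (chr3:30648093-30735634, plus strand), had 24.5 and ACVR2A, an activin type II receptor (chr2:148602086-148688395, plus strand), 23.04. These 3 receptors were nearly equal on that scale and near the median of all marked genes. They were equally close in H3K9Ac fold enrichment, at 9.97, 10.1 and 10.7, each below the median of 13.1 for all genes with an H3K9Ac peak. The TGFBR2 H3K9Ac peak stood apart in width, at 13892 bp, wider than that of 98.5% of marked genes, against 3833 bp at TGFBR1 and 3298 bp at ACVR2A.

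The signal-carrying SMADs had H3K4me3 fold enrichments above the median of marked genes. SMAD4, the partner shared by the TGF-beta and BMP branches (chr18:48554898-48611415, plus strand), reached 31.3 and an H3K9Ac fold enrichment of 17.7. SMAD2 (chr18:45335328-45457517, minus strand) reached 28.4 and 16.0, and SMAD3 (chr15:67356101-67487511, plus strand) 26.0 and 18.6. SMAD2 and SMAD3 are the SMADs of the TGF-beta and activin branch. The order of the 3 genes differed between the marks, with SMAD4 highest for H3K4me3 and SMAD3 for H3K9Ac.

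The feedback inhibitor and the target gene had wide promoter peaks, and that of SMAD7 was low. SMAD7 (chr18:46446223-46477335, minus strand) had the lowest H3K4me3 fold enrichment of the 10 genes, 12.7, above that of only 10.8% of marked genes, over 4464 bp, wider than 97.9% of them. Its H3K9Ac fold enrichment was likewise the lowest, 7.33, in a peak of 16530 bp. ID1, an inhibitor of helix-loop-helix transcription factors and a known BMP target (chr20:30193086-30194318, plus strand), had an H3K4me3 fold enrichment of 19.3, above that of 33.8% of marked genes and within their middle range, over 4634 bp, a peak wider than 98.2% of theirs. The ID1 H3K9Ac peak was 27059 bp wide at a fold enrichment of 11.2, above that of 31% of genes with such a peak, and extended far beyond the 1233 bp gene on both sides. Antisense long non-coding RNAs start at -321, -334, -163 and -163 bp from the BMPR1A, SMAD3, SMAD4 and ID1 start sites, inside the same H3K4me3 and H3K9Ac peaks, and since the immunoprecipitated DNA carries no strand the values there belong to both start sites. In H3K4me1 fold enrichment at the TSS SMAD7 and ID1 were near the top, with 8.32 at SMAD7 and 8.75 at ID1, above 97.4% and 98.1% of genes with such a peak. Fold enrichment is a value of the whole interval, so peaks of different width are not directly comparable in it.

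The DNA just before these start sites differed widely in base composition. Shown are the bases up to 250 before the TSS at the highest promoter (BMPR1A), at the promoter with the lowest GC content (ACVR2A) and at the promoter with the lowest H3K4me3 fold enrichment (SMAD7), read from hg19 at chr10:88516126-88516352 (plus strand), chr2:148602348-148602597 (plus strand) and chr18:46477336-46477585 (minus strand). Capitals mark GGCGCC, a sequence bound by SMADs in BMP-responsive genes, and runs of 8 or more A or T.
BMPR1A: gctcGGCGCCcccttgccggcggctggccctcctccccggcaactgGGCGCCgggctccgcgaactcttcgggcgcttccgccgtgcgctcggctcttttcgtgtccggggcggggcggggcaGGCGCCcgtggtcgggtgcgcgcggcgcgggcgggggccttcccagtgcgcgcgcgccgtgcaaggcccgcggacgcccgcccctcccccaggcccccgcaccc
ACVR2A: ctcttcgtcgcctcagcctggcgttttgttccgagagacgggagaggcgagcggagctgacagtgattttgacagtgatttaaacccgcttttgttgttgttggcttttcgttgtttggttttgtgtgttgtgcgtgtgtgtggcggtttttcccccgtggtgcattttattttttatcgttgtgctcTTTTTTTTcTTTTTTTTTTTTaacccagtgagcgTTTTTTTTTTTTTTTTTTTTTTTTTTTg
SMAD7: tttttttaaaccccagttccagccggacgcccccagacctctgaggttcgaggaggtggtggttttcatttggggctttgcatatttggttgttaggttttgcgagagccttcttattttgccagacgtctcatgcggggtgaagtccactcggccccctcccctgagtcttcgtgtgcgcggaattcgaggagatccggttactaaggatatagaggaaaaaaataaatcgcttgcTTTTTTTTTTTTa
The BMPR1A stretch, which ends before the first annotated transcript of the gene, was 81.9% G and C and held 3 copies of GGCGCC. The ACVR2A stretch was 40.8% G and C and ended in a run of 27 T next to the start site, and the SMAD7 stretch was 48% G and C with a run of 12 T.

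Across windows from 250 bases before to 50 from the TSS, GC content ran from 41.3% at ACVR2A to 84% at SMAD2, beside a median of 63.7% for all protein-coding genes. ACVR2A was above only 6.48% of all promoters and SMAD7 above 14.1%, whereas TGFBR1, BMPR1A, SMAD2, SMAD3 and TGFB1 were above between 91% (TGFB1) and 99.2% (SMAD2) of them. GGCGCC, which reads the same on both strands, occurred in 4 of 10 windows (26% of all promoters). These were BMPR1A with 3 copies, SMAD3 with 2, and SMAD2 and SMAD4 with 1 each. The palindromic SMAD box GTCTAGAC occurred in 0 of 10 (0.194% of all promoters) and CAGACA, searched on both strands, in 0 of 10 (14.4%). The search covers these letters in these windows only.

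H3K4me1 showed 3 arrangements at the start sites. An H3K4me1 peak covered the TSS base itself at 5 of 10 genes, TGFB1, TGFBR1, SMAD3, SMAD7 and ID1 (33.4% of all protein-coding genes and 50.2% of those with an H3K4me3 peak, so the share was that of marked promoters in general). At ACVR2A and SMAD2 the H3K4me1 peak lay upstream and stopped short of the TSS. The SMAD2 one, from -1205 to -208 bp, had the highest H3K4me1 fold enrichment at any of the 10 start sites (9.37) in only 998 bp, and a deposited interval from 1419 to 3353 bp on its other side did not pass the limits. BMPR1A had peaks on both sides of the start site, from -2188 to -1404 bp and from 1042 to 2374 bp. Its H3K4me3 peak, from -1317 to 1559 bp, overlapped the second. TGFBR2 likewise had one from -2847 to -361 bp and one from 1518 to 29220 bp, with H3K4me3 from -672 to 2543 bp overlapping both. SMAD4 was built in the same way, with intervals from -1198 to -823 bp and from 974 to 1688 bp, at fold enrichments of 3.53 and 3.61, that did not pass the q-value limit.

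Over the whole gene bodies, start sites included, the 10 genes fell far apart in H3K4me1. Deposited H3K4me1 intervals covered 100% of the short ID1 gene, 78.3% of SMAD7, 63.9% of SMAD3 and 55.3% of TGFBR2. These were 4 of 10 genes with at least 50% of the body covered (5.7% of all protein-coding genes). The next gene was TGFB1 at 16.3%, followed by SMAD2 at 6.68%, TGFBR1 at 4.72%, SMAD4 at 1.93%, BMPR1A at 1.48% and ACVR2A at 0%. No gene of the 10 lay between 16.3% and 55.3%. Deposited H3K9Ac intervals split the genes in the same place, with 100% at ID1, 64.8% at SMAD7, 49.4% at TGFBR2 and 39.8% at SMAD3, then 15% at TGFB1 and at most 5.89% at the other genes. Few of these H3K9Ac intervals passed the limits at SMAD3 (2 of 14), TGFBR2 (2 of 7) and SMAD7 (1 of 6), against 3 of 4 at TGFB1. Shares under H3K9Ac peaks alone were not computed, so the split is one of deposited intervals. At least 30% of the body lay under H3K9Ac at 4 of 10 genes (11.7% of all protein-coding genes). Both counts include ID1, whose 1233 bp body hardly reaches past the 1 kb TSS window. Its 100% shares are those of the peaks over its TSS and show nothing beyond the promoter. Both cuts, 50% and 30%, lie in gaps between the values of these 10 genes, so the counts depend on them. At 50% only ID1 and SMAD7 would count for H3K9Ac. Among genes with an H3K4me3 peak at the TSS, the lowest of the 4 ranked above 93.1% for H3K4me1 (TGFBR2) and 87.5% for H3K9Ac (SMAD3).

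**Figure D3:**
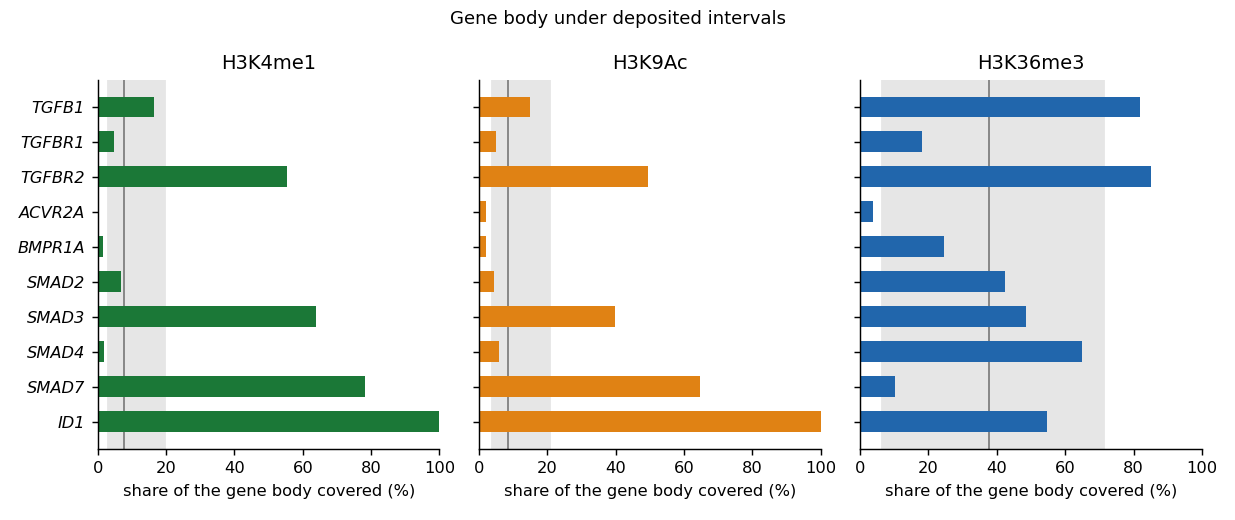
Share of each gene body, in percent, under deposited intervals of H3K4me1, H3K9Ac and H3K36me3, from 0 to 100%. The grey band spans the middle range of protein-coding genes with an H3K4me3 peak at the TSS and the line is their median (37.7% for H3K36me3). TGFBR2, SMAD3, SMAD7 and ID1 exceeded the band for H3K4me1 and H3K9Ac, and TGFBR2 and TGFB1 exceeded it for H3K36me3.

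SMAD3 and TGFBR2 held the longest stretches. In SMAD3, 9 H3K4me1 peaks followed one another from the promoter to 111.3 kb into the gene, the widest of 25687 bp at 37.7 to 63.4 kb with a fold enrichment of 8.69 and the highest at 19.1 to 27.5 kb with 9.44. H3K9Ac intervals overlapped all but the one at 68 to 70.1 kb. Away from the canonical TSS only the H3K9Ac interval at 54.6 to 62.4 kb passed the limits, at a fold enrichment of 6.31. TGFBR2 had an H3K4me1 peak of 27703 bp that began 1.52 kb after the TSS, and another of 13443 bp at 48.4 to 61.8 kb that held an H3K9Ac peak of 10692 bp and fold enrichment 6.13. At SMAD7 one H3K4me1 peak of 18182 bp ran from 2284 bp before the TSS to 15897 bp after it. At ID1 one of 14293 bp, from -5578 to 8714 bp, contained the whole gene.

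Distal H3K4me1 peaks, more than 1 kb from every protein-coding TSS, numbered 17 and lay over or within 10 kb of 7 of the 10 genes (39.2% of all protein-coding genes and 45.1% of those with an H3K4me3 peak at the TSS). BMPR1A and SMAD3 had 4 each, more than 94.3% of genes with an H3K4me3 peak. TGFBR2 and SMAD7 had 3 each, and SMAD2, TGFB1 and ID1 had 1 each. TGFBR1, ACVR2A and SMAD4 had none. Starts of all annotated transcripts of protein-coding genes were considered, not only the canonical ones. The SMAD3 peak at 37.7 to 63.4 kb and the TGFBR2 peak of 27703 bp reached within 1 kb of such a start and were not counted. BMPR1A (176.2 kb) and SMAD3 (131.4 kb) are the longest of the 10, SMAD7 is 31.1 kb and ACVR2A 86.3 kb long, and the part of gene length in these counts was not tested. For BMPR1A, the count includes the pair of peaks that flank its promoter and a peak inside the neighbouring coding gene MMRN2.

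These 17 peaks had fold enrichments from 3.93 to 9.44 with a median of 5.2, beside 4.55 for all 19655 distal H3K4me1 peaks. A deposited H3K9Ac interval overlapped 16 of the 17 (68% of all distal H3K4me1 peaks), and an H3K9Ac peak past the limits overlapped 4 (11.1%). Of these 4, 2 were the BMPR1A promoter flanks, 1 lay in TGFBR2 and 1 upstream of ID1. At BMPR1A and ID1 the overlapping H3K9Ac peak was the one that also covers the TSS, 27059 bp wide at ID1. Only the TGFBR2 one was an H3K9Ac peak apart from the promoter. The upstream ID1 peak ran over 12889 bp from -19.8 to -6.9 kb and contained an H3K4me3 peak of 2394 bp and fold enrichment 6.77, at -11.6 to -9.21 kb, where no coding start site is annotated. One distal peak overlapped a CTCF peak, 182.1 to 183.7 kb from the BMPR1A TSS, beyond the end of the gene and inside the coding gene MMRN2.

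H3K36me3 intervals lay in the body of 10 of 10 genes (56.3% of all protein-coding genes and 83.9% of those with an H3K4me3 peak at the TSS). None passed the limits, and the values that follow rest on intervals called at the loose broad cutoff. At the TSS none of the 10 had an H3K36me3 peak (0.298%), and 1, ID1, had a deposited interval (6.49%). The share of the body covered was 85.1% at TGFBR2, 82% at TGFB1, 64.8% at SMAD4, 54.7% at ID1, 48.6% at SMAD3 and 42.5% at SMAD2. It was 24.5% at BMPR1A, 18% at TGFBR1, 10.1% at SMAD7 and 3.72% at ACVR2A. At least 50% was covered at 4 of 10 genes (25.4% of all protein-coding genes, 40.8% of those with an H3K4me3 peak), and the median of 45.6% stood beside 37.7% for genes with an H3K4me3 peak. With only intervals of q-value below 0.01, TGFBR2 (83.9%), TGFB1 (78.2%), SMAD4 (60.4%) and ID1 (54.7%) kept most of these shares, whereas SMAD2 (9.92%), BMPR1A (12.3%), TGFBR1 (0.923%), SMAD7 and ACVR2A (both 0%) did not. SMAD3 lay between these groups, going from 48.6% to 35.7%.

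Promoter level and body coverage did not run in parallel. BMPR1A, highest in H3K4me3 and H3K9Ac at the TSS, ranked seventh of the 10 in H3K36me3 coverage, and TGFBR1, TGFBR2 and ACVR2A, with nearly equal H3K4me3 fold enrichments, had 18%, 85.1% and 3.72% of their bodies covered. Part of the TGFB1 coverage is shared with other genes, since the widest interval there, 43453 bp at a fold enrichment of 4.61, ran on through HNRNPUL1 and one of 11219 bp lay over CCDC97. Another, of 21873 bp at a fold enrichment of 3.23, lay where no other gene is annotated, over all exons of the canonical transcript except the first. At SMAD4 a readthrough gene model on the same strand overlaps the 5' part of the body. The widest TGFBR2 interval, 41696 bp at a fold enrichment of 4.2 (-log10 q-value 4.24), ended 95.1 kb from the TSS, past the end of the gene.

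**Figure D4:**
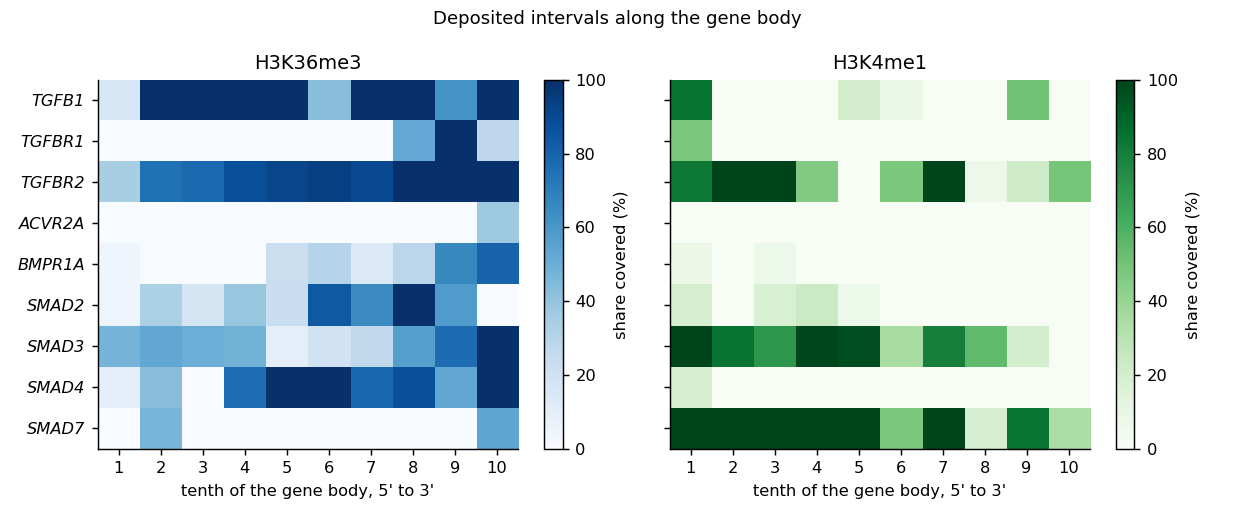
Share of each of 10 equal segments of the gene body, from the 5' to the 3' end, under deposited H3K36me3 and H3K4me1 intervals, from 0% (white) to 100% (dark). The 1233 bp gene ID1 was left out. In TGFBR1 and ACVR2A H3K36me3 was limited to the last 3 segments and the last segment, while H3K4me1 was dense in the first 5 segments of SMAD3 and SMAD7.

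Each body was also split at its midpoint, and H3K36me3 leaned to the 3' side. Of the 9 genes of 20 kb or more, 8 had more of the 3' side than of the 5' side covered (72.5% of such genes with an H3K4me3 peak at the TSS and H3K36me3 in the body). TGFBR1 had 0% of its 5' side and 35.9% of its 3' side covered, ACVR2A 0% and 7.45%, and BMPR1A 5.35% and 43.6%. SMAD2 had 23.4% and 61.6%, SMAD4 45.8% and 83.8%, SMAD3 41.6% and 55.6%, and TGFBR2 73.5% and 96.8%. SMAD7, with 9.37% and 10.7%, was nearly even. TGFB1 was the one gene with less in the 3' side, 80.9% against 83.1%. Its canonical transcript ends 23599 bp from the TSS, before the midpoint of the annotated gene. Its 3' side thus lies wholly beyond that transcript and is shared with CCDC97 and HNRNPUL1. H3K4me1 leaned the other way in all of these 9 genes except ACVR2A, which had none in its body. SMAD3 had 90% of the 5' side and 37.8% of the 3' side covered, and SMAD7 100% and 56.6%. TGFBR2 had 65.7% and 45%, and TGFB1 20.9% and 11.8%. SMAD2, TGFBR1, SMAD4 and BMPR1A had 0% of the 3' side covered and from 2.96% (BMPR1A) to 13.4% (SMAD2) of the 5' side. How many of all genes lean this way in H3K4me1 was not computed.

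For H3K27me3 the counts were near those of all genes. No H3K27me3 peak lay at the TSS of any of the 10 (0 of 10, beside 1.22% of all protein-coding genes), nor anywhere over the TSS and body together (0 of 10, beside 3.03%). Deposited intervals of any strength lay at the TSS of 1 of 10 (9.6%) and in the body of 1 of 10 (20.7%), in both cases SMAD7. SMAD3 had one upstream, and the other 8 genes had none. The SMAD3 interval was 864 bp wide, from -3195 to -2332 bp, at a fold enrichment of 2.88. SMAD7 had 3, of which one of 8649 bp covered the TSS from -3153 to 5495 bp at a fold enrichment of 3.66. Its -log10 q-value was 2.67, short of the limit of 3. SMAD7 was thus the one gene of the 10 with an H3K4me3 peak and a deposited H3K27me3 interval at the same start site (2.2% of all protein-coding genes), and also the one with the lowest H3K4me3 fold enrichment. The interval names in the H3K27me3 list, unlike those of the other 5 lists, do not contain the name of the cell line, which here rests on the label of the library.

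CTCF peaks were found over or within 10 kb of 8 of the 10 genes, 13 in all (62.4% of all protein-coding genes and 69% of those with an H3K4me3 peak at the TSS). TGFB1 had 3, TGFBR1, ACVR2A and BMPR1A 2 each, and TGFBR2, SMAD4, SMAD7 and ID1 1 each. SMAD2 had no CTCF interval and SMAD3 had 3 that did not pass the limits, at fold enrichments of 3.08 to 3.80. The highest peak, of fold enrichment 17.9, lay 7.2 to 8.14 kb from the ID1 TSS, beyond the gene and just inside the end of the wide H3K4me1 and H3K9Ac peaks that cover ID1. The next, of 17.2, lay 182.39 to 183.22 kb from the BMPR1A TSS, beyond the end of the gene and inside MMRN2. Next was the TGFB1 peak near the CCDC97 TSS, at 17.0. TGFBR2 had its only peak, of 11.7, in its last exon, 86.84 to 87.44 kb from the TSS. Peaks thus lay at or beyond the 3' end of ID1, BMPR1A, TGFBR2, ACVR2A, TGFBR1 and SMAD7, and inside introns of ACVR2A, BMPR1A, SMAD4 and TGFBR1. The peak beyond ACVR2A lay inside the coding gene ORC4.

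Both strands of the peaks were searched for the 12-base core consensus of CTCF binding. It occurred exactly in 1 of the 13 peaks (22.4% of all CTCF peaks) and with at most 1 mismatch in 11 of the 13 (65.9%). The exact match and the best match of the 3 other peaks above a fold enrichment of 15 are given, together with that of the peak in the last TGFBR2 exon, with the 12 core bases in capitals and 9 bases on each side, on the strand that carries the core.
TGFB1, chr19:41814593-41814604, exact match: caggagaggCCAGCAGAGGGCgctgtagcc
TGFB1 start site, chr19:41858548-41858559: ggaggggggCCCCCAGGGGGCgccggagtg
ID1, chr20:30200863-30200874: ccaaggcgtCCACTAGAGGCCaccaaggca
BMPR1A, chr10:88699349-88699360: ggcctagcaCCGGTAGAGGGCgctgcgggc
TGFBR2, chr3:30735197-30735208: agaaactcaCCACTAGAGGTCaatgggcaa
The 2 peaks with no match at that tolerance were the BMPR1A intron peak of fold enrichment 10.9 and the TGFBR1 downstream peak of 8.11. A match marks letters in the reference, and occupancy within the peak was not resolved.

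The coding sequences were searched for runs of A or T, and runs of G or C were not searched. Runs of 8 or more A or T occurred in 2 of 10, TGFBR2 and ACVR2A (4.91% of protein-coding genes with a canonical transcript), and runs of 10 or more in 1 of 10 (0.327%). Such runs are known to change length in tumours that lack DNA mismatch repair, as HCT116 does. They are shown as in hg19, with the run in capitals, at chr3:30691857-30691896 in exon 3 of TGFBR2 and chr2:148683671-148683708 in exon 10 of ACVR2A.
TGFBR2: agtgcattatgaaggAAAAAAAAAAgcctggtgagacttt
ACVR2A: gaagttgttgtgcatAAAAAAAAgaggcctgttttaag
The TGFBR2 run of 10 A lay 43.8 kb from the TSS under an H3K36me3 interval of fold enrichment 4.2 and no other mark. The ACVR2A run of 8 A lay 81.1 kb from the TSS under an H3K36me3 interval of 2.79, in the one stretch of the gene body that had H3K36me3. A second ACVR2A run of 8 A, in exon 3 at chr2:148657041-148657048, lay under no interval. Peak lists hold no reads, so the length of these runs in HCT116 was not measured.

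The wider pathway was described with 44 further ligands, receptors, SMADs, regulators and targets. H3K4me3 peaks lay at the TSS of 33 of the 44 (59.1% of all protein-coding genes), H3K9Ac peaks of 32 (58.5%), H3K4me1 peaks of 34 (49.1%) and CTCF peaks of 12 (13.6%). By role, H3K4me3 marked 4 of 4 SMADs, 7 of 7 targets, 10 of 12 regulators, 6 of 10 receptors and 6 of 11 ligands. SMAD1, a SMAD of the BMP branch, had the highest H3K4me3 fold enrichment of the 44 (39.3), followed by ZFYVE9, which presents SMAD2 and SMAD3 to the receptor (38.2), and LTBP1, which binds latent TGF-beta (29.5). Only SMAD1 and ZFYVE9 lay above BMPR1A. The median of the 33 marked genes was 22.0, beside 24.6 for the 10 genes.

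Of the 44 genes, 11 had no H3K4me3 peak at the TSS. They were the ligands TGFB2, INHBA, BMP2, BMP6 and NODAL, the receptors ACVRL1, AMHR2, BMPR1B and ENG, and the secreted antagonists GREM1 and FST. BMP6 and FST still had an H3K4me1 peak there, at fold enrichments of 6.65 and 4.84, whereas the other 9 had none of the 3 active marks. None of the 11 had an H3K27me3 peak over the TSS or the gene (3.03% of all protein-coding genes), but deposited intervals that did not pass the limits covered 17.4% of FST, 8.1% of BMP6 and 4.75% of TGFB2. Such intervals also lay over genes with an H3K4me3 peak. They covered 100% of NOG and 16.7% of BAMBI, at H3K4me3 fold enrichments of 19.2 and 28.1. BMP7, SMAD6, SMAD9, ACVR1C, TGFBR3 and LTBP1 had at most 5.28% covered. These marked genes were named after their values were seen. PMEPA1, a feedback inhibitor induced by TGF-beta, was the one gene of the 44 with an H3K27me3 peak (1 of 44, beside 3.03% of all protein-coding genes). That peak was 67975 bp wide at a fold enrichment of 4.24 and covered 84.9% of the gene together with its TSS, where an H3K4me3 peak of 8.46 lay as well, the lowest of the 33 marked genes.

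**Figure D5:**
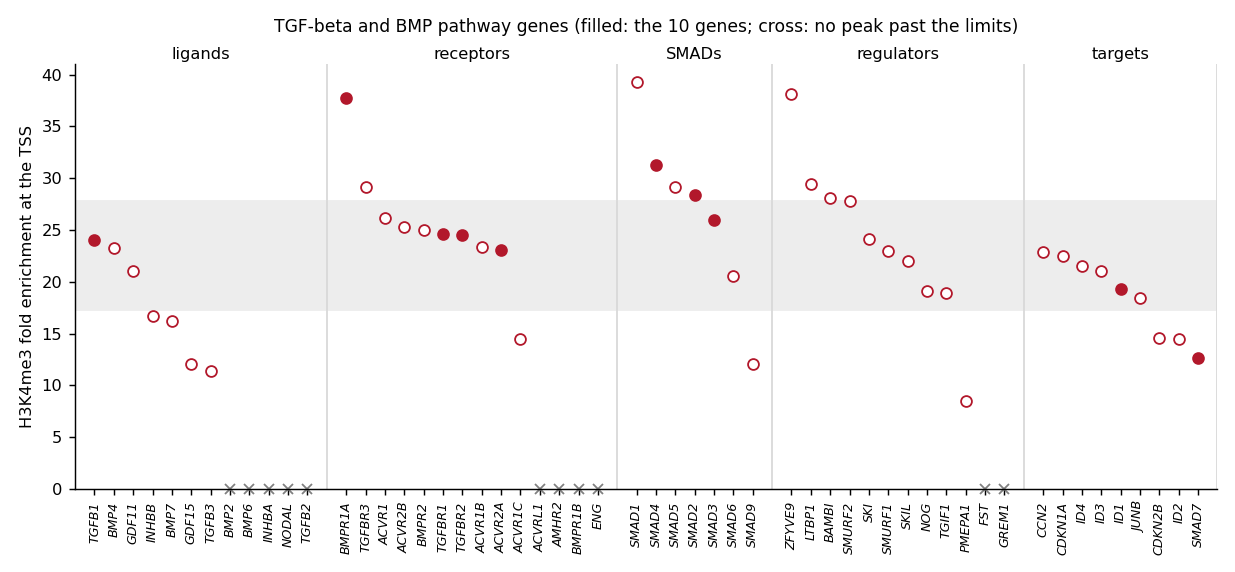
H3K4me3 fold enrichment of the peak at the TSS of pathway genes by role, sorted within each role. Filled points are the 10 genes, open points are 33 other pathway genes, crosses at 0 mark genes with no H3K4me3 peak within 1 kb of the TSS, and the grey band spans the middle range of all marked genes. All SMAD genes shown have a point, and the 11 crosses are ligands, receptors and regulators.

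Receptors of the same class differed in this respect. Of the type I receptors, ACVR1, ACVR1B, TGFBR1 and BMPR1A had H3K4me3 fold enrichments of 26.2, 23.4, 24.6 and 37.7 and ACVR1C one of 14.5, while ACVRL1 and BMPR1B had no peak. Of the type II receptors, BMPR2 and ACVR2B had 25 and 25.3, close to TGFBR2 and ACVR2A, while AMHR2 had no peak. Among the ligands, TGFB1 had 24.0 and TGFB3 11.4, and TGFB2 had no peak. The 4 ID genes, all BMP targets, were alike in having a peak, at 19.3 for ID1, 14.5 for ID2, 21.0 for ID3 and 21.5 for ID4. The inhibitory SMADs differed, with 12.7 at SMAD7 and 20.6 at SMAD6, and both had wide H3K4me1, over 78.3% and 61.6% of the body. ACVR1, ACVR1B, ACVR1C, BMPR2, ACVR2B, TGFB3, ID2, ID3, ID4 and SMAD6 were named after their values were seen, to complete each class.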

How the data were processed

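Peak lists of 6 PIXUL-ChIP-seq libraries of HCT116 cells were used, 1 library per mark. The authors used BWA 0.7.12 to align reads to hg19 and MACS2 with a broad cutoff of 0.1 to call peaks in each library, while the submitters' processing notes name MACS 1.4.2 and SAMtools 0.1.19. The text names paired-end and the labels also single-end reads. The fold enrichment that the authors deposited is a linear ratio over background, and the -log10 q-value that the authors deposited is likewise a value of the whole interval. The depth is unknown, and it affects how many intervals are called and how wide they are.

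Genes, canonical TSSs and exons came from GENCODE 44 for hg19. It lists 20162 protein-coding genes, and 19881 of them carry a canonical transcript, with the gene's 5' end as TSS otherwise. Overlaps required 1 bp, a TSS window reached 1 kb to each side, and body coverage used all deposited intervals. Overlap functions were tested on simulated data. Python 3.11.15, numpy 2.4.6, pandas 2.3.3 and matplotlib 3.10.9 were used. The genes, lists and motifs were chosen with earlier results of these data known. Named were the 10 genes and, of 44 other pathway genes, those with an H3K27me3 peak, those with no H3K4me3 peak at the TSS and the 3 highest in H3K4me3, besides coding genes starting within 10 kb. HNRNPUL1, B9D2, TMEM91, MMRN2, ORC4 and the readthrough gene at SMAD4 have canonical start sites farther away and were added because intervals lay over them. One gene of the pathway list is not reported here and enters none of its counts. No test was run. Alternatives changed the limits, windows, TSS, body and core match.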

Additional observations from a re-analysis of the deposited data

How the results depend on the processing

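Of 125 values recomputed under an alternative, 103 stayed within 1.5 times the value given above and 22 moved. With all deposited intervals, start sites with H3K36me3 were 1 of the 10 genes, 3 of the 44 other pathway genes and 1309 of all protein-coding genes, those with H3K27me3 were 1, 9 and 1936, and those with CTCF were 7, 19 and 5940. For H3K36me3 over all protein-coding genes, the fold enrichment limit multiplied by 1.5 left 21 and a window of 500 bp left 13. With only intervals past the limits, 14 H3K9Ac, 0 H3K36me3, 0 H3K27me3 and 13 CTCF intervals lay over the 10 genes. Within 50 kb, 81 H3K4me1, 16 H3K27me3 and 46 CTCF intervals did, and over the gene bodies alone 2 H3K27me3 intervals did. The median share of the body under H3K36me3 was 0% with the limits and 24.0% with a q-value below 0.01. With 1 mismatch, 11 CTCF peaks held the core. No paired analysis was possible because the labels give a single library for every mark. The unknown depth limits all counts and widths: an interval missing from a list may lie below what its library could detect.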
